A study of Caenorhabditis elegans with 47 samples.

Results

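Transcript levels of 9 eggshell and vitelline layer genes, perm-2, perm-4, cbd-1, egg-1, egg-2, egg-3, chs-1, cpg-1 and cpg-2, were followed in 3 strains of Caenorhabditis elegans on 47 Affymetrix arrays of total RNA, with 1 array per sample. The annotation of the array named each gene alone on at least 1 probe set, 16 probe sets in all, and the probe set with the highest mean over the 47 arrays stood for the gene. The 9 genes were 9 of the 17118 genes measured in this way. The strains were worms that make Abeta, the peptide of the plaques in Alzheimer's disease (15 arrays), worms that make GFP::degron, a fluorescent protein joined to a peptide that marks proteins for degradation (16 arrays), and worms that make GFP alone (16 arrays). Worms of every strain grew on NGM plates with OP50 bacteria at 16 °C, were shifted to 25 °C as young third-stage larvae, and were collected at the shift (T0) and at 4 h steps to 20 h after it (T20). T8 and T16 had 4 arrays in each strain, T12 had 4 arrays of Abeta, 5 of GFP::degron and 5 of GFP worms, and T0, T4 and T20 had 1 array in each strain. The promoter, copy number and genetic background of the 3 transgenic strains are not known from the labels. The arrays of a strain and time were described as biological repeats.

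Levels are given as log2(intensity + 1), where the intensity is the deposited linear value of the probe set. The arrays were alike in brightness, with medians of 60.1 to 108.73 intensity units on 46 of them, except GFP T8 replicate 3, whose median was 20.32 (the dim array), so counts that rest on GFP at T8 are given with and without that array. Differences between groups are in log2 units after subtraction of the median over all 17118 genes, each with its standard error (SE), and group levels have the standard deviation (SD) between arrays. A gene is said to have risen, fallen or passed where limma's moderated test gave a Benjamini-Hochberg adjusted p under 0.05 over all 17118 genes. The RNA came from worms without separation of tissues, so which cells held a transcript is not known. Fewer oocytes or other cells that hold a transcript and less of it per cell cannot be told apart. The levels of different genes come from different probe sets and are not set against each other.

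The eggshell is built by the oocyte around itself, beginning before ovulation and ending within minutes of fertilisation. Its outermost layer, the vitelline layer, is already present on the oocyte and holds the chitin-binding protein CBD-1 with PERM-2 and PERM-4. EGG-1 and EGG-2 span the oocyte membrane and are needed for the sperm to enter, and EGG-3 and the chitin synthase CHS-1 lie at the oocyte cortex beneath them. After fertilisation CHS-1 makes the chitin layer, and the chondroitin proteoglycans CPG-1 and CPG-2, released from cortical granules, form the layer inside it. The growing germ line first forms oocytes around the end of the last larval stage. Which cells made the transcripts of these proteins was not measured here.

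Between T8 and T16 3 of the 9 genes rose in Abeta worms, cpg-1, cpg-2 and egg-1, whereas perm-2 and perm-4 differed by 0.14 and 0.22 log2 units between these times. In GFP::degron worms none of the 9 passed. In GFP worms all 9 rose, by 1.54 log2 units for egg-2 to 3.46 for perm-2. Of all genes, 4.53% rose in Abeta worms, 0.38% in GFP::degron worms and 15.3% in GFP worms.

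**Figure D1:**
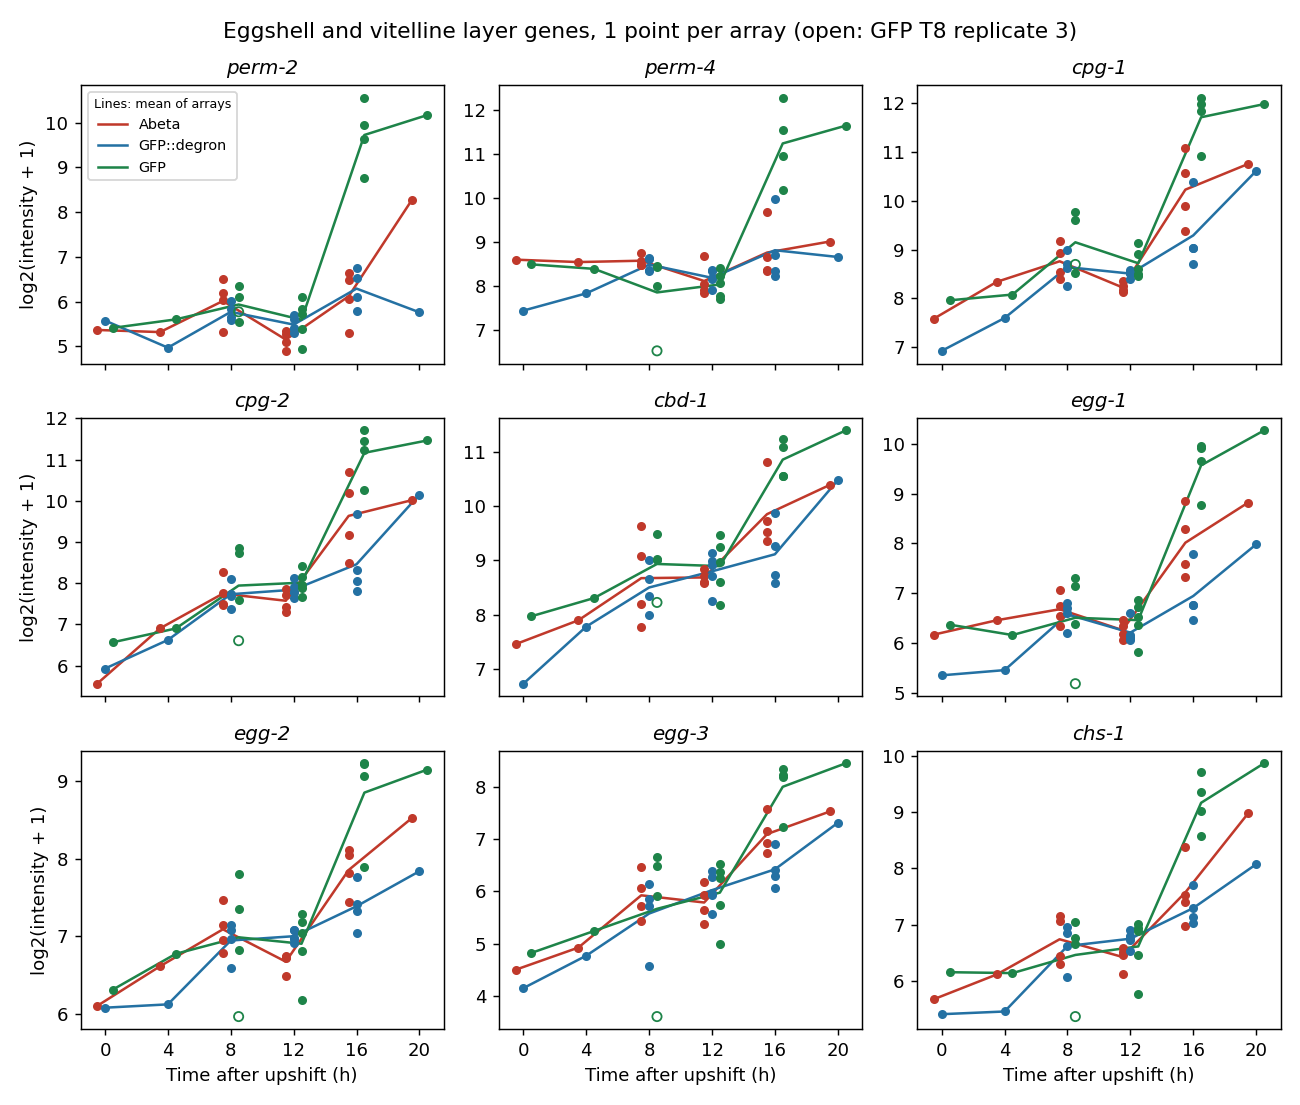
Log2(intensity + 1) of the 9 genes on every array, plotted against hours after the temperature shift, with 1 panel per gene; points are arrays and lines join the means of each strain. At 16 h the 4 Abeta arrays of perm-2 lie between 5.29 and 6.64 and the 4 GFP::degron arrays between 5.79 and 6.76, below the 4 GFP arrays (8.76 to 10.56), and the open point at 8 h is the dim GFP array.

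The vitelline layer genes perm-2 and perm-4 had the largest Abeta minus GFP differences of the 9 genes at T16, and perm-2 also the largest GFP::degron minus GFP difference. On the Abeta arrays of T16 perm-2 had log2 levels of 5.29, 6.48, 6.64 and 6.07, and on the GFP::degron arrays 5.79, 6.76, 6.52 and 6.11. On the GFP arrays of T16 the levels were 8.76, 10.56, 9.94 and 9.64. The GFP arrays did not overlap those of either other strain, which overlapped each other. At T12 perm-2 lay between 4.90 and 5.34 in Abeta, between 5.30 and 5.70 in GFP::degron and between 4.94 and 6.10 in GFP worms, so the ranges of the 3 strains touched or overlapped before T16. The mean at T16 was 6.12 ± 0.603 in Abeta, 6.29 ± 0.432 in GFP::degron and 9.72 ± 0.750 in GFP worms (SD, n = 4 each). This put perm-2 at T16 12.7-fold lower in Abeta than in GFP worms, a difference of -3.67 ± 0.313 (SE, adjusted p = 8.99e-09). It was 11.8-fold lower in GFP::degron than in GFP worms, a difference of -3.56 ± 0.313 (SE, adjusted p = 1.6e-08).

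The adjacent gene perm-4 behaved alike on its brightest probe set. Its T16 levels were 8.36, 8.34, 9.69 and 8.67 in Abeta and 8.23, 9.99, 8.71 and 8.35 in GFP::degron worms, against 10.18, 12.29, 11.56 and 10.95 in GFP worms. Again no Abeta or GFP::degron array reached the lowest GFP array. The difference at T16 was -2.54 ± 0.389 (SE, adjusted p = 0.000983) for Abeta minus GFP and -2.55 ± 0.389 (SE, adjusted p = 0.000293) for GFP::degron minus GFP. In the RefSeq gene table of assembly WBcel235 perm-4 (C44B12.5) and perm-2 (C44B12.1) are neighbouring protein-coding genes on chromosome IV, with no other protein-coding gene between them. They were measured on separate probe sets.

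Both perm-2 probe sets were higher at T16 than at T12 in GFP worms, by 4.13 on the brighter and 3.75 on the other, but the 4 perm-4 probe sets differed in direction. From T12 to T16 in GFP worms the mean log2 level of the brightest perm-4 probe set differed by 3.20, that of the second brightest by -0.97, and those of the remaining dimmer ones by 5.93 and 5.53. In Abeta worms the same differences were 0.65, -0.38, 2.33 and 2.16, and in GFP::degron worms 0.63, -0.09, 1.34 and 1.46. On the dimmer pair perm-4 had a larger T12 to T16 difference in Abeta worms than on the probe set used. At T16 Abeta minus GFP was -3.52 (adjusted p = 0.0227) and -3.21 (adjusted p = 0.00917) on the dimmer pair and 0.68 (adjusted p = 0.415) on the second brightest. The probe sets used for perm-2, perm-4, cpg-2, cbd-1 and egg-3 all carry a mark of the maker for probes that may bind more than 1 transcript. Which perm-4 probe set follows the gene was not tested, so every perm-4 value is uncertain.

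The third vitelline layer gene, cbd-1, whose product anchors the layer, passed at T16 against GFP worms in GFP::degron but not in Abeta worms. Its T16 levels were 9.35, 9.52, 10.80 and 9.72 in Abeta, 9.26, 9.87, 8.74 and 8.58 in GFP::degron and 10.54, 10.56, 11.23 and 11.08 in GFP worms. Abeta replicate 3 lay inside the GFP range and the other 3 Abeta arrays below it, while every GFP::degron array lay below it. Against GFP worms the T16 difference was -1.07 ± 0.361 (SE, adjusted p = 0.493) in Abeta and -1.87 ± 0.361 (SE, adjusted p = 0.00304) in GFP::degron worms.

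The sperm-entry genes egg-1 and egg-2 lay in the order GFP, Abeta, GFP::degron at T16. For egg-1 the levels were 7.32, 8.29, 8.85 and 7.60 in Abeta, 6.47, 7.79, 6.77 and 6.77 in GFP::degron and 8.76, 9.94, 9.90 and 9.65 in GFP worms. For egg-2 they were 7.45, 8.04, 8.11 and 7.81 in Abeta, 7.04, 7.77, 7.42 and 7.32 in GFP::degron and 7.89, 9.23, 9.22 and 9.07 in GFP worms. The Abeta range overlapped the GFP range for both genes, through GFP replicate 1, the lowest GFP array. Against GFP, egg-1 differed by -1.61 ± 0.358 in Abeta (SE, adjusted p = 0.0441) and by -2.74 ± 0.358 in GFP::degron worms (SE, adjusted p = 5.4e-05). The egg-2 difference was -1.06 ± 0.296 in Abeta (SE, adjusted p = 0.231) and -1.59 ± 0.296 in GFP::degron worms (SE, adjusted p = 0.00248).

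At the oocyte cortex, chs-1 passed against GFP worms at T16 in both other strains and egg-3 in GFP::degron worms. The chitin synthase gene chs-1 had T16 levels of 7.53, 6.98, 8.38 and 7.41 in Abeta, 7.03, 7.71, 7.30 and 7.14 in GFP::degron and 8.57, 9.02, 9.71 and 9.35 in GFP worms, and the GFP arrays lay above all the others. Its difference from GFP was -1.65 ± 0.321 in Abeta (SE, adjusted p = 0.0167) and -1.99 ± 0.321 in GFP::degron worms (SE, adjusted p = 0.000574). The pseudophosphatase gene egg-3, whose product tethers CHS-1 at the cortex, had levels of 6.74, 7.16, 7.58 and 6.92 in Abeta, 6.42, 6.90, 6.30 and 6.07 in GFP::degron and 7.23, 8.35, 8.24 and 8.20 in GFP worms. Its difference from GFP was -0.97 ± 0.442 in Abeta (SE, adjusted p = 0.931) and -1.71 ± 0.442 in GFP::degron worms (SE, adjusted p = 0.0287).

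The proteoglycan genes cpg-1 and cpg-2 were highest in GFP worms at T16 as well, and every Abeta array of T16 lay above those of T12. For cpg-1 the T16 levels were 9.38, 10.56, 11.07 and 9.89 in Abeta, 8.71, 10.38, 9.03 and 9.03 in GFP::degron and 10.92, 12.11, 11.97 and 11.83 in GFP worms. For cpg-2 they were 8.49, 10.18, 10.71 and 9.16 in Abeta, 8.31, 9.67, 8.06 and 7.80 in GFP::degron and 10.26, 11.71, 11.46 and 11.24 in GFP worms. Abeta replicate 3 entered the GFP range for both genes, and no GFP::degron array did. Abeta minus GFP at T16 was -1.54 ± 0.332 for cpg-1 (SE, adjusted p = 0.0341) and -1.59 ± 0.424 for cpg-2 (SE, adjusted p = 0.171). GFP::degron minus GFP was -2.54 ± 0.332 for cpg-1 (SE, adjusted p = 5.4e-05) and -2.83 ± 0.424 for cpg-2 (SE, adjusted p = 0.000213).

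**Figure D2:**
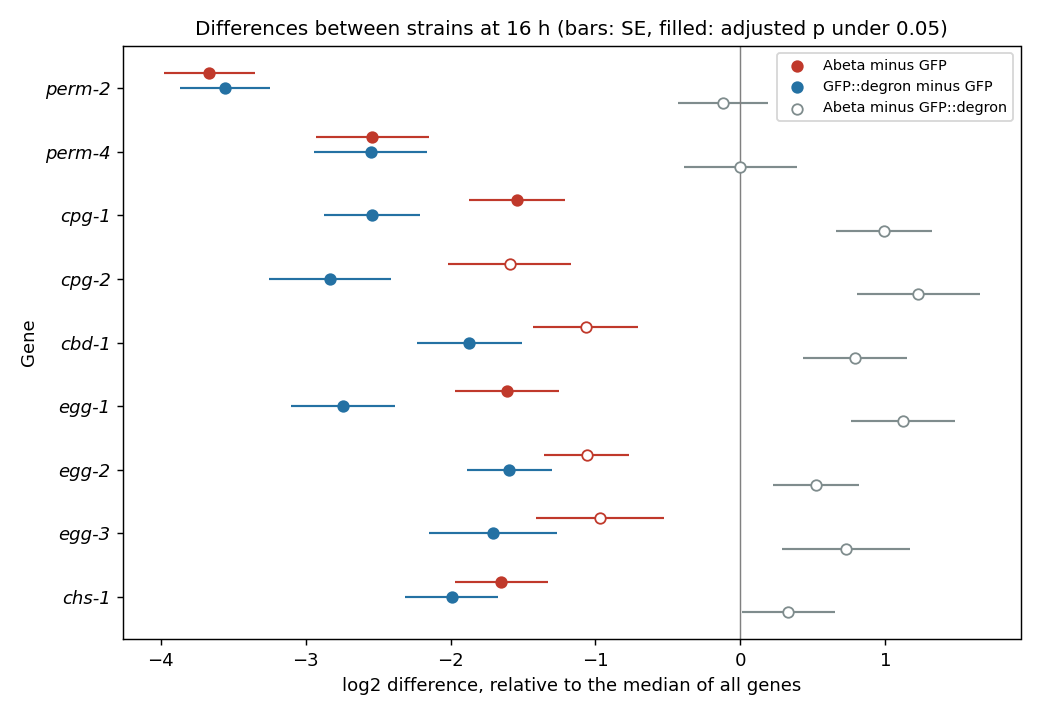
Log2 difference at T16, relative to the median of all genes, of each of the 9 genes for each pair of strains, with SE bars; filled points passed at an adjusted p under 0.05. For Abeta minus GFP the 9 differences run from -3.67 to -0.97, for GFP::degron minus GFP from -3.56 to -1.59, and for Abeta minus GFP::degron from -0.12 to 1.23.

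Counted together at T16, 5 of the 9 genes were lower in Abeta than in GFP worms (perm-2, perm-4, egg-1, chs-1 and cpg-1), where 0.257% of all genes were lower. All 9 were lower in GFP::degron than in GFP worms, where 3.34% of all genes were lower. Between Abeta and GFP::degron worms limma called 0 of the 9 at T16, with 4 at an unadjusted p under 0.05, where 0.0351% of all genes were called. The median difference of the 9 was -1.59 for Abeta minus GFP, -2.54 for GFP::degron minus GFP and 0.73 for Abeta minus GFP::degron, against 0.06, 0.13 and -0.05 for all genes before they were set to 0. The Abeta and GFP arrays did not overlap for 3 genes, perm-2, perm-4 and chs-1, where 1.7% of all genes lay lower without overlap, and the GFP::degron and GFP arrays did not for all 9, where 8.13% did. The 2 comparisons with GFP share the 4 GFP arrays. On its other probe set cpg-1 did not pass for Abeta minus GFP at T16 (-1.37, adjusted p = 0.2). The egg-1 call in Abeta sits at the threshold: it was lost when any of 26 arrays was left out singly, those of other strains and times among them. Without GFP T8 replicate 3, which does not enter this difference but enters the estimate of the spread, 7 of the 9 were lower in Abeta than in GFP worms, egg-2 and cpg-2 being added, and 0.794% of all genes.

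On the probe sets used, perm-2 and perm-4 had the smallest T8 to T16 differences of the 9 genes in Abeta worms. In these worms cpg-2 rose by 1.92 ± 0.424 (SE, adjusted p = 0.00459), cpg-1 by 1.5 ± 0.332 (SE, adjusted p = 0.005) and egg-1 by 1.37 ± 0.358 (SE, adjusted p = 0.0217). The differences that did not pass were 1.21 for cbd-1 (adjusted p = 0.0548), 1.21 for egg-3 (adjusted p = 0.169), 0.87 for chs-1 (adjusted p = 0.188) and 0.80 for egg-2 (adjusted p = 0.188). For perm-2 it was 0.14 ± 0.313 (SE, adjusted p = 1.0) and for perm-4 0.22 ± 0.389 (SE, adjusted p = 1.0). The perm-4 value depends on the probe set: on the dimmest one it rose in Abeta worms by 2.60 (adjusted p = 0.00637), more than any of the 9 on the probe sets used, and on the second brightest it was -0.47 (adjusted p = 0.437). On the third the Abeta mean was 6.66 at T16 and 4.81 at T8. Without GFP T8 replicate 3, which enters the spread alone here, 7 genes rose in Abeta worms, all but perm-2 and perm-4, where 8.87% of all genes rose. Without Abeta T16 replicate 3, the highest Abeta array for each of the 9 genes, none of the 9 passed.

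With T12 in place of T8, a comparison added after the data had been seen, 6 of the 9 rose in Abeta worms, where 5.56% of all genes rose. These were cpg-2 (2.02), cpg-1 (1.96), egg-1 (1.71), egg-2 (1.14), cbd-1 (1.13) and chs-1 (1.11). The 4 Abeta arrays of T16 lay above all 4 of T12 for 7 genes, all but perm-2 and perm-4, where 12.4% of all genes did so. Abeta T16 replicate 1 had perm-2 at 5.29, inside the T12 range of 4.90 to 5.34, and perm-4 at 8.36, inside the T12 range of 7.84 to 8.68. The perm-2 and perm-4 differences between T12 and T16 were 0.93 ± 0.313 (SE, adjusted p = 0.0593) and 0.61 ± 0.389 (SE, adjusted p = 0.411).

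In GFP::degron worms limma called none of the 9 between T8 and T16, with 1 at an unadjusted p under 0.05, and their differences lay between 0.28 and 0.80. The 4 arrays of T16 were uneven: replicate 2 was the highest for all 9 genes. On that array cpg-1 stood at 10.38 and cpg-2 at 9.67, against 8.71 to 9.03 and 7.80 to 8.31 on the other 3. Its perm-2 level was 6.76, against 6.52 on replicate 3. At T16 the GFP::degron arrays lay above all of T12 for 3 genes (perm-2, cpg-1 and chs-1), where 7.37% of all genes did so.

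In GFP worms the T8 to T16 rise was 3.46 ± 0.313 for perm-2 (SE, adjusted p = 2.41e-09), 3.06 ± 0.389 for perm-4 and 2.90 ± 0.424 for cpg-2 (SE). It was 2.73 ± 0.358 for egg-1, 2.37 ± 0.321 for chs-1 and 2.23 ± 0.332 for cpg-1 (SE), and 2.02 ± 0.442 for egg-3, 1.60 ± 0.361 for cbd-1 and 1.54 ± 0.296 for egg-2 (SE), with the highest adjusted p at 0.000242. All 9 genes also rose without the dim array, by 1.68 to 3.88, where 10.9% of all genes rose, and against T12, by 1.93 for egg-2 to 4.11 for perm-2, where 9.07% of all genes rose. The 4 GFP arrays of T16 lay above every GFP array of T8 for all 9 genes, where 13.7% of all genes did so. How many of all genes rose and fell in GFP worms depended on the scaling and on the dim array, while all 9 genes rose in each case. On all arrays as deposited 2622 were higher and 99 lower, and after quantile normalization 2318 higher and 3652 lower. Without the dim array, and with no rescaling, 1866 were higher and 2046 lower.

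**Figure D3:**
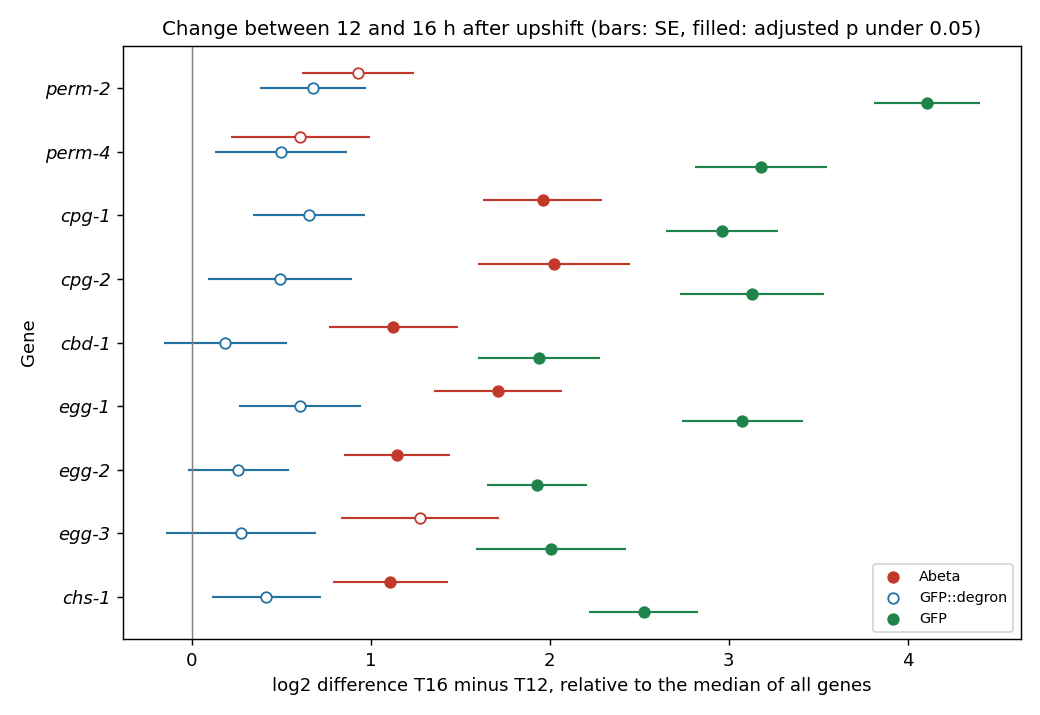
Log2 difference between T16 and T12 in each strain for the 9 genes, relative to the median of all genes, with SE bars. Filled points passed at an adjusted p under 0.05. In Abeta worms the 9 lie between 0.61 (perm-4) and 2.02 (cpg-2). They lie between 0.19 and 0.68 in GFP::degron worms and between 1.93 and 4.11 in GFP worms.

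Whether the strains differed in the T8 to T16 change was tested as an interaction. For Abeta against GFP worms 2 genes of all 17118 passed, 0.0117%, and they were perm-2 and perm-4. On its other probe sets perm-4 did not pass, at 0.52 (adjusted p = 0.906), -3.22 (adjusted p = 0.742) and -2.40 (adjusted p = 0.817) from the second brightest to the dimmest. The difference of changes was -3.28 ± 0.442 for perm-2 (SE, adjusted p = 2.51e-05) and -2.80 ± 0.550 for perm-4 (SE, adjusted p = 0.0149), and lay between -1.46 and -0.34 for the other 7 genes. The median over the 9 was -0.93 and that of all genes, before it was set to 0, was -0.40, which the dim array moved: without it the same median was 0.10 and perm-2 and perm-4 again were the members that passed, at -3.73 and -2.85, with 0.0117% of all genes. With T12 as the earlier time perm-2 alone passed, 0.00584% of all genes, at -3.20 ± 0.431 (SE, adjusted p = 0.000387), and perm-4 was at -2.59 (adjusted p = 0.149). Fitted on the arrays of the groups compared alone, neither passed (perm-2 adjusted p = 0.101, perm-4 adjusted p = 0.815).

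For GFP::degron against GFP worms the interaction passed for perm-2 (-2.90 ± 0.442, SE, adjusted p = 0.000331), perm-4 (-2.69 ± 0.550, SE, adjusted p = 0.0115) and egg-1 (-2.32 ± 0.507, SE, adjusted p = 0.0145), where 0.0935% of all genes passed in that direction. The 6 others lay between -2.13 (cpg-2) and -0.95 (cbd-1). Without GFP T8 replicate 3 the same genes passed, perm-2 at -3.36 (adjusted p = 0.00127), perm-4 at -2.76 and egg-1 at -2.39 (adjusted p = 0.0305 for both), where 0.0526% of all genes did. On the second brightest and the third of its probe sets perm-4 did not pass, at 0.70 (adjusted p = 0.782) and -4.05 (adjusted p = 0.0743). For Abeta against GFP::degron worms limma called none of the 9, none had an unadjusted p under 0.05, and 0.00584% of all genes passed. The perm-2 difference there was -0.38 ± 0.442 and the perm-4 difference -0.11 ± 0.550 (SE), while cpg-2 had 1.19 ± 0.600 (SE). The interactions with GFP share the GFP arrays of both times.

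Averaged over T8, T12 and T16, perm-2 (-1.5 ± 0.178, SE) and cpg-1 (-0.96 ± 0.189, SE) were the members lower in Abeta than in GFP worms, where 0.134% of all genes were lower. Neither passed on its other probe set, with perm-2 at -0.91 (adjusted p = 0.0933) and cpg-1 at -0.91 (adjusted p = 0.0745). Without GFP T8 replicate 3 there were 6, perm-4, cpg-2, egg-1 and chs-1 being added, and 1.26% of all genes. Lower in GFP::degron than in GFP worms were 7 of the 9, all but perm-4 and egg-3, where 3.55% of all genes were lower, and all 9 without that array, where 9.33% were lower. Between Abeta and GFP::degron worms limma called none of the 9 and none had an unadjusted p under 0.05, where 0.28% of all genes passed.

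Before T16 the members differed in how far they stood from T0. Between the single T0 array and the mean of T12, cpg-2 differed by 2.01 in Abeta, 1.92 in GFP::degron and 1.45 in GFP worms, unshifted. The matching values were 1.29, 1.88 and 1.16 for egg-3 and 1.23, 2.07 and 0.92 for cbd-1, and -0.22, -0.09 and 0.18 for perm-2. All genes had medians of -0.12, 0.36 and -0.07 in the same comparisons. Over all genes the 95th percentile of the same difference was 1.14 in Abeta, 2.02 in GFP::degron and 1.4 in GFP worms, and 3, 1 and 1 of the 9 genes lay above it, so most members were within the range of other genes. With 1 array at T0 in each strain these differences have no replicate check.

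Order among the 9 groups of strain and time gave GFP at T16 the highest mean for all 9 genes. For perm-2, perm-4 and chs-1 its 4 arrays did not overlap those of the next group. For the other 6 genes the next group was Abeta at T16, and its arrays overlapped those of GFP at T16. For perm-2 and perm-4 the remaining 8 groups formed an unbroken chain in which each group's arrays overlapped those of the next. For chs-1 there was 1 further gap, between GFP::degron at T16 and GFP::degron at T12, and for cpg-1 a gap above Abeta at T12, the lowest group. How many of all genes share this order or these gaps was not counted, so neither is shown to be particular to the 9.

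At T20 each strain had 1 array. On the Abeta array perm-2 stood at 8.26, above all 4 Abeta arrays of T16 and below the 4 GFP arrays of T16, while the GFP::degron array had 5.76 and the GFP array 10.17. The perm-4 levels at T20 were 9.02 in Abeta, 8.67 in GFP::degron and 11.65 in GFP worms. In Abeta worms 5 of the 9 genes lay below the lowest GFP array of T16 at this time (perm-2, perm-4, cpg-1, cpg-2 and cbd-1), where 28.1% of all genes did, and 4 lay within the GFP range (egg-1, egg-2, egg-3 and chs-1). In GFP::degron worms 8 lay below it, where 29.2% of all genes did, and egg-3 within the GFP range. On the Abeta array of T20, 3 genes stood above all 4 Abeta arrays of T16 (perm-2, egg-2 and chs-1), where 20.1% of all genes did so. On the GFP::degron array of T20, 7 genes stood above all 4 GFP::degron arrays of T16, all but perm-2 and perm-4, where 13.9% of all genes did so. Its cpg-2 level was 10.15, cpg-1 10.61 and cbd-1 10.48, so perm-2 was near its T0 level of 5.58 on an array where the proteoglycan and anchor genes were high.

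**Figure D4:**
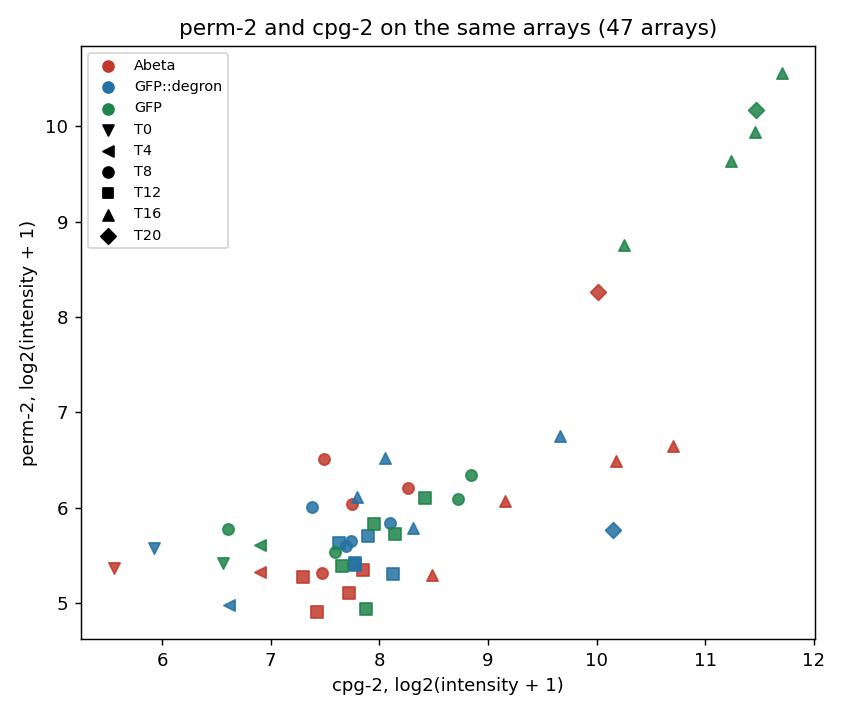
Log2 level of perm-2 against that of cpg-2 on each of the 47 arrays, coloured by strain, with 1 symbol shape per time. The Abeta T20 array has cpg-2 at 10.01 with perm-2 at 8.26 and the GFP::degron T20 array cpg-2 at 10.15 with perm-2 at 5.76, whereas the GFP arrays of T16 lie at the upper right (cpg-2 10.26 to 11.71, perm-2 8.76 to 10.56).

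Across the 46 arrays other than the dim one, each centred on its median, the 9 genes correlated with Pearson r between 0.71 and 0.98 over their 36 pairs, with a median of 0.91. The highest was cpg-1 with cpg-2 (0.977) and the lowest perm-4 with cbd-1 (0.708). The arrays share strains and times, so these values describe the common time course. Within groups, as deviations from the group means over 37 arrays, r lay between 0.19 (perm-2 with cbd-1) and 0.92 (cpg-1 with egg-1), with a median of 0.58. The spread within a group was therefore partly common to the genes: at T16 GFP replicate 1 was the lowest GFP array for all 9, and Abeta replicate 1 the lowest Abeta array for 7.

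The genes outside the 9 whose levels followed each member most closely over the 46 arrays differed between members. For cpg-1 they were pos-1 (r = 0.981), rme-2 and puf-11, for cpg-2 cyb-2.2 (r = 0.976), puf-3 and puf-5, and for cbd-1 plk-3 (r = 0.949), puf-7 and puf-11. For egg-1 they were T01C3.3 (r = 0.976), rme-2 and gln-6, for egg-2 gln-5 (r = 0.966), pos-1 and gln-6, for egg-3 cyb-2.1 (r = 0.963), puf-7 and era-1, and for chs-1 gfat-2 (r = 0.959), pos-1 and rme-2. Of these, rme-2 encodes the yolk receptor of oocytes, pos-1 and the puf genes encode RNA-binding proteins of the germ line, and gfat-2 encodes an enzyme that makes the sugar precursor of chitin. For perm-2 the closest were snf-5 (r = 0.913), Y57G11A.2 and the yolk protein gene vit-5, and for perm-4 C39D10.7 (r = 0.928), ule-5 and pal-1. None of the 3 genes closest to perm-2 or to perm-4 was among the 3 closest to any of the other 7. These lists leave out the 9 members themselves. Among the members perm-2 had r = 0.910 with perm-4 and 0.909 with egg-1, near its value with snf-5, and its lowest with cbd-1 (0.736).

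Other genes of eggshell assembly were read from lists. Of 4 other chondroitin proteoglycan genes measured, cpg-3 and cpg-4 rose between T8 and T16 in Abeta worms, by 1.86 and 1.07. All 4 rose in GFP worms, among them cpg-3 by 3.20 ± 0.450, cpg-4 by 1.46 ± 0.261 and cpg-9 by 0.78 ± 0.351 (SE). Of 6 genes of chitin precursor synthesis 1 rose in Abeta worms, the glucosamine phosphate acetyltransferase gene gna-2, by 1.48. In GFP worms 5 rose, among them gfat-2 by 2.30 ± 0.396, gna-2 by 2.19 ± 0.362 and pgm-3 by 0.80 ± 0.313 (SE). Of 9 genes of the permeability barrier and lipid layer 1 rose in Abeta worms, the cytochrome P450 gene cyp-31A3, by 1.48. In GFP worms 4 rose, among them perm-1 by 2.05 ± 0.405, cyp-31A2 by 1.28 ± 0.327 and cyp-31A3 by 1.08 ± 0.293 (SE). Of 2 measured partners of the cortex proteins oops-1 rose in GFP worms, by 1.94 ± 0.510 (SE), and the other did not pass. Of 10 genes of chondroitin synthesis 3 rose in GFP worms, sqv-7, sqv-1 and sqv-2, by 0.83, 0.81 and 0.52. In GFP::degron worms none of the genes of these 5 lists passed. If the dim array was left out, 2 of 4 proteoglycan, 3 of 6 chitin precursor, 3 of 9 barrier, 1 of 2 cortex and 1 of 10 chondroitin synthesis genes rose in GFP worms, and gna-1 and fasn-1 fell. Of the genes just named, cpg-9, sqv-7 and sqv-2 then no longer rose in GFP worms. In GFP::degron worms cpg-3 and gna-2 then rose, where 2.82% of all genes rose.

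At T16 none of the genes of those 5 lists passed between Abeta and GFP worms, with 2 of 6 chitin precursor genes and 1 of 9 barrier genes at an unadjusted p under 0.05. The list medians were -0.69 for the proteoglycans, -0.53 for chitin precursors and -0.14 for the barrier. Lower in GFP::degron than in GFP worms at T16 were cpg-3 (-1.89), cpg-4 (-0.98), gfat-2 (-2.31), gna-2 (-1.56) and perm-1 (-1.83). If the dim array was left out, cpg-3, gfat-2, gna-2 and perm-1 were also lower in Abeta than in GFP worms at T16, and gna-1 was higher.

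Some markers of other cells and of developmental stage, from the oocyte, sperm and yolk lists, moved with the 9 genes. Their part in the results was not tested. Between T8 and T16 4.53% of all genes rose in Abeta, 0.38% in GFP::degron and 15.3% in GFP worms. Of 19 oocyte markers measured, 8 rose in Abeta worms between T8 and T16, none in GFP::degron worms, where 8 had an unadjusted p under 0.05, and 17 in GFP worms, among them pos-1 by 3.30, puf-5 by 3.15 and puf-3 by 2.60. Their summed intensity at T16 was 4191 to 8122 in Abeta, 3292 to 5685 in GFP::degron and 7983 to 13662 in GFP worms. Between Abeta and GFP worms none of the 19 passed at T16, 13 had an unadjusted p under 0.05, and their median difference was -1.01. With the dim GFP T8 array left out, 10 of the 19 were lower in Abeta than in GFP worms at T16, and 0.794% of all genes. In that fit 14 of the 19 rose between T8 and T16 in Abeta (1 fell), 5 in GFP::degron (1 fell) and 17 in GFP worms. The shares of all genes that rose were then 8.87%, 2.82% and 10.9%.

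**Figure D5:**
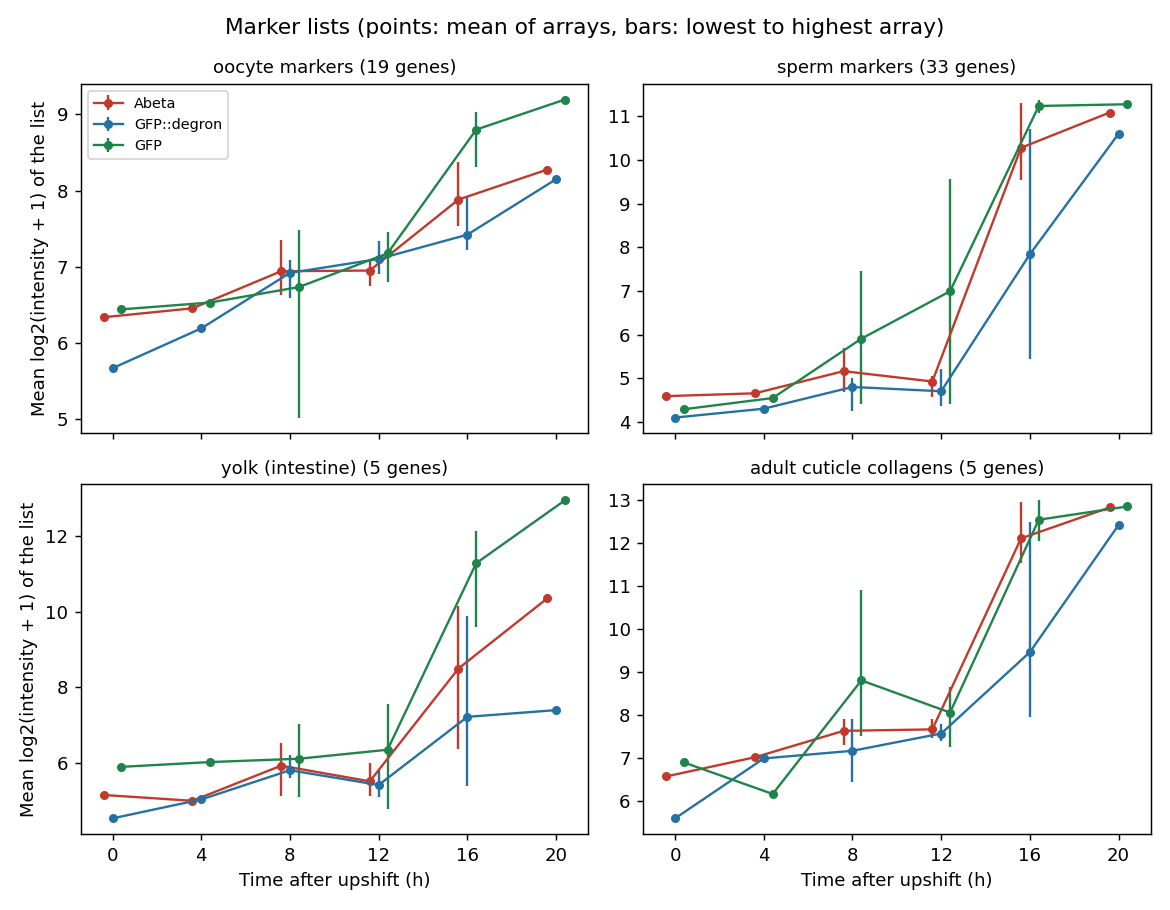
Mean log2(intensity + 1) over the genes of 4 marker lists against hours after the temperature shift in Abeta, GFP::degron and GFP worms; points are means of arrays and bars run from the lowest to the highest array. At T16 the oocyte list averages 7.88 in Abeta, 7.42 in GFP::degron and 8.80 in GFP worms, and the sperm list spreads from 5.44 to 10.71 over the GFP::degron arrays.

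The sperm list, genes of the spermatocytes that precede oocytes in the hermaphrodite gonad, varied widely between arrays of a group. Between T8 and T16 4.53% of all genes rose in Abeta, 0.38% in GFP::degron and 15.3% in GFP worms. Of 33 sperm genes 27 rose in Abeta, 4 in GFP::degron and 32 in GFP worms. Their mean log2 level at T16 ranged from 9.54 to 11.32 over the Abeta arrays, from 5.44 to 10.71 over the GFP::degron arrays and from 11.08 to 11.39 over the GFP arrays. At T12 the range was 4.58 to 5.06 in Abeta, 4.36 to 5.20 in GFP::degron and 4.42 to 9.56 in GFP worms. Summed sperm gene intensity at T16 was 105368 to 352995 in Abeta, 3450 to 241361 in GFP::degron and 358758 to 431214 in GFP worms. The GFP arrays lay above all others in this sum, while the Abeta and GFP ranges of the mean log2 level overlapped. The 5 adult cuticle collagens averaged 12.11 ± 0.678 in Abeta, 9.46 ± 2.08 in GFP::degron and 12.55 ± 0.385 in GFP worms at T16 (SD, n = 4 each). With the dim GFP T8 array left out, the sperm genes that rose were 28 in Abeta, 16 in GFP::degron and 30 in GFP worms. The shares of all genes that rose were then 8.87%, 2.82% and 10.9%.

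The adult intestine transcribes the yolk genes, and the oocytes take up their proteins. Some yolk genes were lower in Abeta than in GFP worms at T16, the direction seen for perm-2. Of 5 measured, vit-5 (-4.53 ± 0.969) and vit-6 (-3.45 ± 0.678) were lower in Abeta than in GFP worms (SE, adjusted p = 0.0296 and 0.0154), and 4 were lower in GFP::degron than in GFP worms, vit-2 by the most (-6.67). The adult collagen gene col-19 was lower as well, by -3.35 ± 0.754 in Abeta (SE, adjusted p = 0.0418) and by -4.77 ± 0.754 in GFP::degron worms (SE, adjusted p = 0.00034). The adult collagen list as a whole lay closer in Abeta and GFP worms at T16, by the means given above. Summed yolk gene intensity at T16 was 683 to 8130 in Abeta, 632 to 6508 in GFP::degron and 5470 to 54287 in GFP worms. The Abeta and GFP::degron ranges both overlapped the GFP range. Between T8 and T16 vit-2 rose by 5.51 and vit-1 by 3.08 in Abeta worms, and vit-2 by 8.79, vit-5 by 6.87 and vit-1 by 4.54 in GFP worms. Once the dim array was left out, vit-5 rose in Abeta worms as well, and vit-1 was also lower in Abeta than in GFP worms at T16.

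Lists for the gonad sheath and spermatheca (6 genes), the early embryo (8 genes) and body-wall muscle (10 genes) were read for cells the worms could hold. Limma called none of these genes between T8 and T16 in any strain (2 muscle genes fell in GFP::degron and 2 in GFP worms without GFP T8 replicate 3), and none between Abeta and GFP worms at T16, where 3 muscle genes and none of the others had an unadjusted p under 0.05. Early embryo genes averaged 4.80 ± 0.192 in Abeta, 4.96 ± 0.248 in GFP::degron and 4.83 ± 0.235 in GFP worms at T16 (SD, n = 4 each). Somatic gonad genes averaged 7.92 ± 0.176 in Abeta, 8.11 ± 0.0586 in GFP::degron and 7.84 ± 0.115 in GFP worms (SD, n = 4 each). The muscle gene tnt-2 was lower in GFP::degron than in GFP worms over T8, T12 and T16, by -0.76 ± 0.105 (SE, adjusted p = 0.000641).

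The other lists were also read as averages over the 3 times. Lower in Abeta than in GFP worms was vit-1 alone among the genes of all 12 lists, by -2.07 ± 0.427 (SE, adjusted p = 0.019). Once the dim array was left out, 13 of 19 oocyte markers and 3 of 10 muscle genes were lower as well. So were 2 of 4 proteoglycan genes and 2 of 6 chitin precursor genes. The share of all genes that were lower was then 1.26%, against 0.134% in the fit of all arrays. Lower in GFP::degron than in GFP worms, where 3.55% of all genes were lower, were 24 of 33 sperm genes and 10 of 19 oocyte markers. So were 4 of 5 yolk genes, 4 of 5 adult collagens and 2 of 6 chitin precursor genes (gfat-2 and gna-2). The same held for 1 of 4 proteoglycan genes (cpg-9) and 2 of 10 muscle genes (tnt-2 and unc-27). Higher there, where 14.5% of all genes were higher, were the oocyte gene lin-41, the collagen gene rol-6, the barrier genes fasn-1 and pod-2, the somatic gonad genes ceh-18 and plc-1 and the muscle gene unc-22. In the fit without the dim array 27 sperm genes, 15 oocyte markers, 4 yolk genes and 4 collagens were lower in GFP::degron than in GFP worms. So were 4 chitin precursor, 3 barrier, 2 proteoglycan and 2 muscle genes and oops-1, where 9.33% of all genes were lower.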

How the data were processed

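Total RNA of worms, 5 µg per sample, was labelled with biotin and hybridised to 47 Affymetrix arrays, per the labels' protocols. The authors' deposited table holds linear intensity values of 22625 probe sets, and per the submitters' processing notes the software was Affymetrix Expression Console 1.1. How probes were summarised and arrays scaled is not given in the sources used here.

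Control probe sets (77) were left out, and probe sets that the platform annotation of 2016 names with 1 gene (20766) gave 17118 genes, each read from its brightest probe set on average. Values were used as log2(intensity + 1), so differences of dim genes are understated. With limma 3.58.1 in R 4.3.3, means of 9 groups (3 strains at T8, T12 and T16) were fitted to the log2 values of 38 arrays (29 residual degrees of freedom), and adjusted p-values are Benjamini-Hochberg values over 17118 genes. An adjusted p belongs to the difference before the median of all genes was taken off. The fit was checked on simulated data with noise drawn independently for each gene and array. The simulation held no dim array and no deviations shared between genes or arrays, so it does not test the fit under those. Tables were made in python 3.11.15 with pandas 2.3.3 and numpy 2.4.6, and plots with matplotlib 3.10.9. Precision is limited by how many arrays each group has.

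The members, lists and tests were chosen with earlier results of these data known. All 9 members are named. From each other list the rule named up to 3 genes by their T16 minus T8 change in GFP worms, and those that passed between strains averaged over T8, T12 and T16, of which long groups are given as counts. For likeness, the 3 genes with the highest Pearson r over 46 arrays were taken. The lists covered eggshell assembly (5 lists), oocytes, sperm, yolk, somatic gonad, early embryo, body-wall muscle and adult collagens. Alternatives were quantile normalization, median centring, a pseudocount of 16, leaving out genes with a mean log2 under 5, only the groups compared, the replicate number as a block, other probe sets and leaving out each array.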

Additional observations from a re-analysis of the deposited data

Results flagged for a closer look

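In 4 of the 81 combinations of a member, a strain and a replicated time, 1 array stood apart from the others of its group by Dixon's criterion, which chance meets in about 1 in 20 groups. At T12 these were GFP::degron replicate 1 for egg-1, the highest at 6.61, and Abeta replicate 1 for egg-2, the lowest at 6.48. At T16 GFP replicate 1 was the lowest for egg-2, at 7.89, and for egg-3, at 7.23.

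The T8 to T16 change differed between strains by the interaction test for 3 members. Abeta minus GFP gave -3.28 for perm-2 and -2.80 for perm-4. GFP::degron minus GFP gave -2.90 for perm-2, -2.69 for perm-4 and -2.32 for egg-1.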

How the results depend on the processing

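Counts of members that passed are given out of 9. Under quantile normalization 8 passed for Abeta minus GFP averaged over the 3 times (2 as deposited) and 6 for T16 minus T8 in Abeta worms (3 as deposited). Median centring gave 8 and 5, and with GFP T8 replicate 3 also left out, an alternative added after the data were seen, 7 and 6. Fitting only the groups compared gave 1 and 5, 1 for Abeta minus GFP at T16 (5 in the fit of all groups), and 0 and 1 for the interactions of Abeta and of GFP::degron with GFP (2 and 3 in the fit of all groups). The GFP::degron interaction counted 6 with a pseudocount of 16 and 5 without genes of a mean log2 under 5. T12 as the earlier time, also added later, gave 6 for Abeta worms and 1 and 6 for these interactions. Leaving out 1 array at a time, the counts ranged from 1 to 6 (Abeta minus GFP, averaged), 5 to 9 (GFP::degron minus GFP, averaged), 0 to 7 (T16 minus T8 in Abeta), 1 to 3 (interaction, Abeta minus GFP), 2 to 7 (interaction, GFP::degron minus GFP), 2 to 7 (Abeta minus GFP at T16), 0 to 1 (Abeta minus GFP::degron at T16) and 8 to 9 (GFP::degron minus GFP at T16). On the probe sets used, all 9 rose in GFP worms under each of these alternatives but the fit of only the groups compared, which called 7. Abeta minus GFP averaged counted 6 without GFP T8 replicate 3 and 1 without GFP T12 replicate 1, GFP T16 replicate 2 or 3, Abeta T8 replicate 1 or 2, Abeta T12 replicate 3, or Abeta T16 replicate 1 or 4. T16 minus T8 in Abeta counted 7 without GFP T8 replicate 3 and 0 without Abeta T16 replicate 3. Abeta minus GFP at T16 counted 2 without Abeta T16 replicate 1 or 4 (likewise GFP T16 replicates 2 and 3) and 3 without Abeta T16 replicate 2 (likewise GFP T16 replicate 4). The GFP::degron interaction counted 5 to 7 without GFP T8 replicate 2 or 4, GFP T16 replicate 1, GFP::degron T16 replicate 2 or Abeta T16 replicate 3. Between Abeta and GFP::degron at T16, cpg-1 passed (adjusted p 0.0301) without GFP::degron T16 replicate 2. The perm-4 interaction of Abeta with GFP did not pass without GFP T16 replicate 2 or 3, Abeta T8 replicate 1, or Abeta T16 replicate 1 or 2 (adjusted p 0.0545 to 0.0723), while perm-2 passed in each such fit. Over all genes, calls for Abeta minus GFP at T16 numbered 59 as deposited, 587 after quantile normalization and 5 with only the groups compared; for T16 minus T8 in GFP worms 2721, 5970 and 1030, in Abeta worms 794, 3267 and 1751, and for GFP::degron minus GFP at T16 929, 4337 and 3067. Counts over all genes are not given here for every setting, the averaged comparisons under quantile normalization and median centring among them. Member counts there cannot be read against a share of all genes. The causes of these shifts were not tested.

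Signs turned for perm-4 on its second brightest probe set, with 0.33 for Abeta minus GFP, -0.39 for Abeta minus GFP::degron and 0.73 for GFP::degron minus GFP averaged over times, -0.47, -0.34 and -0.95 for T16 minus T8 in Abeta, GFP::degron and GFP worms, 0.52 and 0.70 for the interactions of Abeta and GFP::degron with GFP, and 0.68 and 1.19 for the same strains against GFP at T16. The other sign changes were in Abeta minus GFP::degron, and in T16 minus T8 with 1 array left out. On other probe sets these were 0.18 (averaged) and 0.16 (T16) for perm-2, and 0.82 and 1.28 (interaction) and 0.91 and 0.98 (T16) for perm-4. With a pseudocount of 16 perm-4 averaged -0.0018, quantile normalization and the filter gave it 0.0757 and 0.0293 at T16, and T12 as the earlier time gave interactions of 0.22 for perm-2 and 0.0732 for perm-4. With 1 array left out the averaged value ran from -0.14 to 0.0132 for perm-2, -0.0936 to 0.13 for perm-4 and -0.043 to 0.0942 for chs-1, the interaction from -0.42 to 0.29 for perm-4 and -0.0742 to 0.35 for chs-1, and the T16 value from -0.28 to 0.14 for perm-2 and -0.30 to 0.40 for perm-4. T16 minus T8 then ran from -0.088 to 0.39 for perm-2 and -0.0834 to 0.34 for perm-4 in Abeta worms and from -0.11 to 0.46 for perm-4 in GFP::degron worms.

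Arrays of the same replicate number tended to deviate together, with 22 of 37 pairs correlated above 0.1 (median r 0.164, lowest -0.335), and for Abeta with GFP at T16 all 4 pairs (r 0.313 to 0.53). As not every pair did, the pairing was left out of the fit reported. In fits with that number as a replicate block, an effect per number shared by all times and strains, no member's call changed in any comparison. The counts were 2 for the interaction of Abeta with GFP (perm-2 -3.28, perm-4 -2.80) and 5 for Abeta minus GFP at T16. Such a block cannot take up deviations that strains share at a single time, so pairing within a time was not tested. Limits are the small groups; T0, T4 and T20 have no replicates, and log2(intensity + 1) compresses the lowest levels.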
